A study of Mus musculus with 35 samples.

Results

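The transcription factors Wt1, Foxc1, Foxc2, Tcf21, Foxd1, Klf15 and Tead1, known from work on podocyte identity, were followed in podocytes of mice with a mutant Lmx1b gene. They are 7 of the 33292 genes in the deposited expression table and were chosen by name. Lmx1b, a LIM homeodomain transcription factor of the podocyte that is mutated in nail-patella syndrome, is the gene the study targeted and is not among the 7.

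Podocytes are the epithelial cells that wrap the glomerular capillaries and close the kidney filter with interdigitating foot processes. Their differentiated state is held by a small circle of transcription factors that bind many of the same genes, including those of the slit diaphragm. Wt1 is a zinc finger protein needed for kidney development and for the mature podocyte, Foxc1, Foxc2 and Foxd1 are forkhead proteins, Tcf21 is a basic helix-loop-helix protein, Klf15 is a zinc finger protein that glucocorticoids induce, and Tead1 is a DNA-binding partner of the coactivators YAP and TAZ.

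The study asked how podocytes with dysfunctional LIM domains of Lmx1b respond to the proteasome inhibitor bortezomib. Adult mice carried 1 floxed Lmx1b allele, in which loxP sites flank the exons of the homeodomain, opposite a wild-type allele (Lmx1b +/lox, the controls), an allele with the H77L exchange in the first LIM domain (Lmx1b H77L/lox, the H77L mice) or an allele with the C118F exchange in the second LIM domain (Lmx1b C118F/lox, the C118F mice). All groups, controls included, also carried an rtTA transgene, in which a podocyte promoter drives the doxycycline-dependent activator, a tetO::Cre transgene and the mT/mG reporter, and all received doxycycline at 2 mg/ml in the drinking water for 7 days, which was given to inactivate the floxed allele in podocytes of every group. They received injections on alternate days, either of bortezomib (0.3 μg/g) or of DMSO as the solvent, and green fluorescent podocytes of both kidneys were sorted on day 7. There were 6 mice in each of the 6 groups except the bortezomib-treated C118F group with 5, and each of the 35 mice gave 1 library. The deposited label of the controls leaves the floxed allele out and was taken to mean Lmx1b +/lox, the control named in the series design. Mice are numbered within a group for naming only.

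Values are TPM (transcripts scaled to a fixed sum per library), that is, reads per gene divided by gene length and scaled to the same sum in each mouse. Wt1 lies at chr2:104956625-105003961, Foxc1 at chr13:31990616-31996459, Foxc2 at chr8:121842910-121845634, Foxd1 at chr13:98490750-98495813, Klf15 at chr6:90438998-90452220 and Tead1 at chr7:112278522-112506014, all on the plus strand of GRCm39, and Tcf21 at chr10:22692803-22696073 on the minus strand. The 5′ end of Wt1 overlaps the antisense gene Wt1os (chr2:104906883-104956913). How strand was treated in counting is not given in the sources used here, so reads in the overlap cannot be told apart.

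Promoter sequences, 300 bases around the start of a gene, were taken from RefSeq (GRCm38.p6), where 4 of the 7 genes had an entry, namely Tcf21, Foxc1, Foxd1 and Klf15. They are shown for Tcf21, which was lower in both knock-in lines, for Foxc1, the paralog of Foxc2, and for Klf15, the most variable of the genes. Capitals mark a match to a motif searched for.
Tcf21, minus strand, chr10:22820094-22820393: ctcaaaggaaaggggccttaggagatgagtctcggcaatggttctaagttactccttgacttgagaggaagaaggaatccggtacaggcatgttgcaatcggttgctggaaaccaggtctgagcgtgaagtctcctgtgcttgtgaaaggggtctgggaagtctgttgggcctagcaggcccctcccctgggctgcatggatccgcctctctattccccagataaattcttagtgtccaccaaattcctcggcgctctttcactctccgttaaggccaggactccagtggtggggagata
Foxc1, plus strand, chr13:31806396-31806695: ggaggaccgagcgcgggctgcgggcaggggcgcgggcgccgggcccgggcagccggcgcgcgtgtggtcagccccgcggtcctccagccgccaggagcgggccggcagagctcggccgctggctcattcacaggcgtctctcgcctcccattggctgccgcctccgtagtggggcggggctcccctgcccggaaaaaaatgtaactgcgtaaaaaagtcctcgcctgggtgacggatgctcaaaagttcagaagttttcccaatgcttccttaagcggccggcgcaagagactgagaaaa
Klf15, plus strand, chr6:90462326-90462625: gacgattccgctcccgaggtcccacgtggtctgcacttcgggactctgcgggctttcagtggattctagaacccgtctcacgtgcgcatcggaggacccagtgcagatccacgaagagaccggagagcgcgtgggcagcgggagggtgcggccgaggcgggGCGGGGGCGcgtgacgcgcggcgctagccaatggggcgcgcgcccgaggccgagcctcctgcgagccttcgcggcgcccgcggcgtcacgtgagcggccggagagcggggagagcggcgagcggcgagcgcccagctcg
Searched on both strands were the homeodomain core TAATTA (in 5.29% of the 32851 promoters of the RefSeq table), the forkhead motif TGTTTAC (3.65%) and the TEAD motif GGAATG (14.7%). The motif GCGGGGGCG shared by WT1 and EGR proteins (2.91%) was searched as well. So was CAGNTG (51.4%), which covers only a part of the E-box forms of basic helix-loop-helix proteins. The only match to these motifs in the 4 promoters was 1 copy of the WT1 and EGR motif in Klf15, which begins at base 162 of the sequence. Other E-box forms, such as the CACGTG in the Klf15 sequence, were not searched for. The share of G and C was 53.3% for Tcf21, 67.3% for Foxc1, 57.7% for Foxd1 and 73.3% for Klf15.

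Podocyte markers were high in every library: over the 35 mice Podxl ranged from 1204 to 9338 TPM, Synpo from 257.1 to 3199 TPM, Ptpro from 151.1 to 1405 TPM and Nphs1 from 112.9 to 322.8 TPM. The lists of other cell types were low but moved with genotype in part, some up and some down. The summed level of 8 mesangial and stromal markers had medians of 37.65 and 22.2 TPM in controls under DMSO and bortezomib, of 214.2 and 174.6 TPM in H77L and of 234.7 and 159.4 TPM in C118F mice. Pdgfrb ranged from 4.34 to 22.1 TPM in controls and from 64.1 to 543.8 TPM in knock-in mice. Single mice reached sums of 217.7 TPM among controls and 2268 TPM among knock-in mice, the latter with 2166 TPM of the renin gene Ren1. Over all mice the means were 127.0 TPM for Pdgfrb, 67.9 for Ren1, 8.67 for Col1a1, 3.08 for Cspg4 and 1.00 for Myh11, and Itga8, Gata3 and Pdgfra were below 1 TPM. The sum of 7 parietal epithelial markers was 51.7 to 96.9 TPM in controls and 91.2 to 255.1 TPM in knock-in mice, with means over all mice of 67.0 TPM for Cldn1, 25.2 for Ncam1, 20.1 for Pax8, 1.95 for Krt8 and 1.17 for Cp, and with Pax2 and Scin below 1 TPM. The tubule lists were lower in knock-in mice. Proximal tubule sums had medians of 107.3 and 100.3 TPM in controls under DMSO and bortezomib. These were 12.98 and 20.08 TPM in H77L and 10.75 and 13.6 TPM in C118F mice. For the distal nephron the medians were 34.63 and 25.78 TPM, 6.783 and 7.923 TPM and 7.452 and 7.809 TPM in the same order. Single mice overlapped, with control sums down to 6.547 and 4.341 TPM and knock-in sums up to 728.2 and 104.2 TPM. Of the 7 leukocyte markers, 5 had a mean below 1 TPM. The part of these lists in the results below was not tested. Libraries that stood apart were 4. DMSO-treated Lmx1b +/lox mouse 1 had the highest sums of leukocyte (297.9 TPM) and erythroid (93.5 TPM) markers, mouse 2 of the same group those of proximal tubule (1077 TPM) and distal nephron (1101 TPM) markers, and DMSO-treated C118F mouse 1 had the 2166 TPM of Ren1 and 174.4 TPM of endothelial markers. Bortezomib-treated C118F mouse 2 had the lowest depth, 5268893 reads as recovered from the TPM values, against 14037701 to 24148486 in the other mice. Lmx1b, the targeted gene, had a mean of 69.6 TPM ± 14.7 (SD, n = 6) in DMSO-treated controls, 119.5 TPM ± 19.7 (n = 6) in H77L and 101.2 TPM ± 49.8 (n = 6) in C118F mice, with log2 fold changes of 0.78 (adjusted p = 0.000791) and 0.41 (adjusted p = 0.311). Its level is no check of the knock-in alleles, since an amino acid exchange does not show in a value per gene.

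In DMSO-treated Lmx1b +/lox podocytes, Foxc2 (562.6 TPM ± 70.8, SD, n = 6) and Tcf21 (518.9 TPM ± 158) were the most abundant of the 7 transcripts per length. They were followed by Foxc1 (259.8 TPM ± 64.4), Wt1 (209.0 TPM ± 46.1), Klf15 (98.2 TPM ± 55.4), Foxd1 (78.6 TPM ± 16.4) and Tead1 (13.1 TPM ± 2.59). Neighbours in this order did not all differ. Foxc2 was above Tcf21 in only 3 of 6 mice and Klf15 above Foxd1 in 4 of 6, and the ranges of Foxc1 and Wt1 and of Wt1 and Klf15 overlapped, while Tcf21 lay above Foxc1 and Foxd1 above Tead1 without overlap. The level of Klf15 depends on the gene model, since its TPM steps fitted a length of 2791 bases, against 7381 bases of exon in GENCODE vM39. The median number of recovered reads per mouse ranged from 904 for Klf15 to 8852 for Foxc1, so counting error was small beside the spread between mice.

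**Figure D1:**
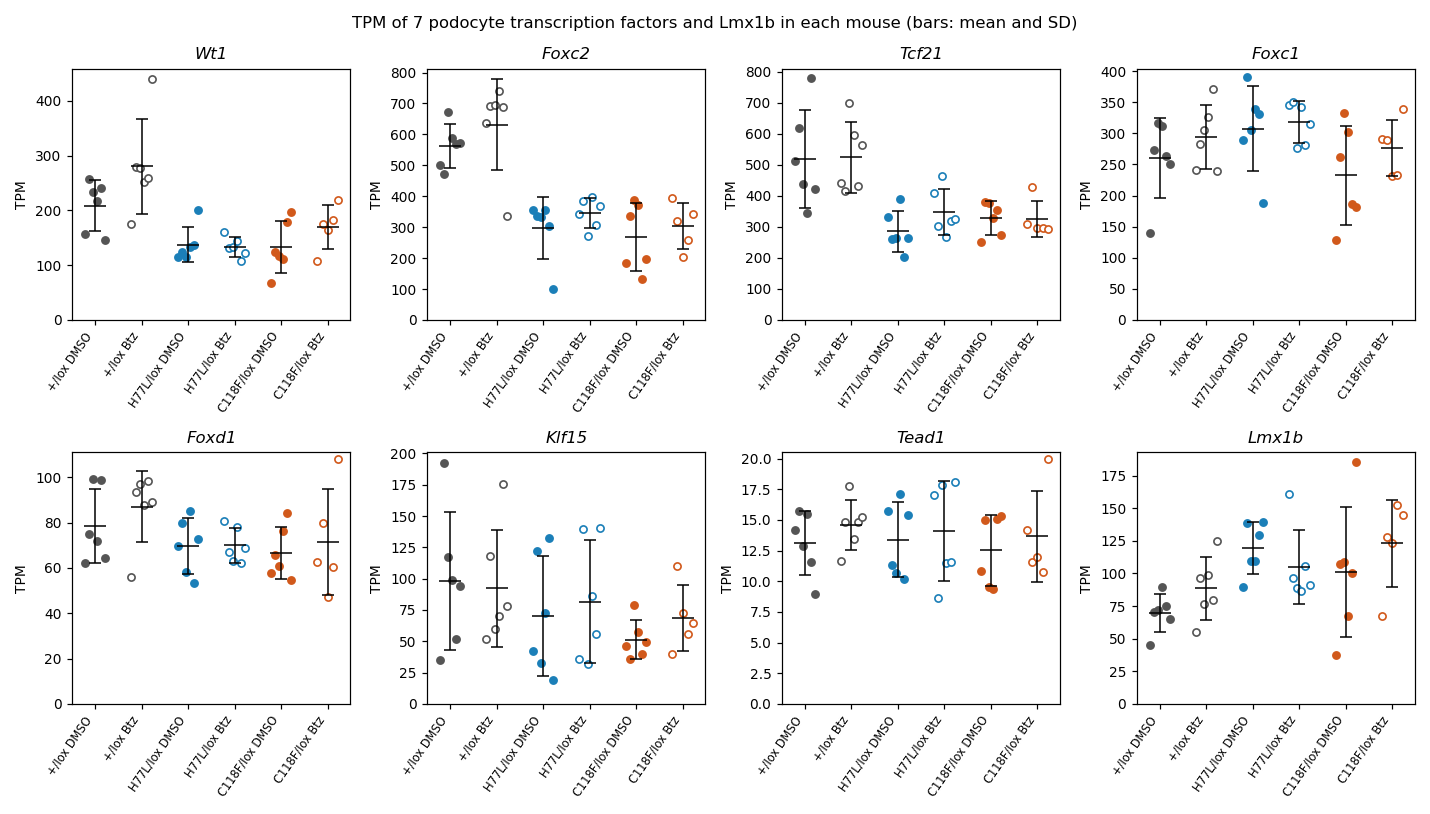
TPM (vertical axes, linear) of the 7 transcription factors and of Lmx1b in each of the 35 mice, by genotype and treatment (Btz, bortezomib), with the mean and SD of each group as black bars. Wt1, Foxc2 and Tcf21 sat lower in both knock-in lines, Foxc1, Foxd1 and Tead1 overlapped between all groups, and Klf15 ranged from 19.2 to 192.1 TPM.

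The order changed in the knock-in lines. In DMSO-treated H77L mice Foxc1 had the highest mean (307.8 TPM ± 68.0, n = 6), with Foxc2 (297.2 TPM ± 98.7) and Tcf21 (285.1 TPM ± 65.9) next, and Foxc1 was above Foxc2 in 3 of 6 mice. In DMSO-treated C118F mice Tcf21 led (327.3 TPM ± 54.6, n = 6), above Foxc2 in 4 of 6 mice, and Foxd1 exceeded Klf15 in 5 of 6. Tead1 was lowest in every group, with means between 12.5 and 14.6 TPM.

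Wt1, Foxc2 and Tcf21 were lower in podocytes of both knock-in lines than in controls, under DMSO and under bortezomib. The fitted change was -33.8% for Wt1, -50.8% for Foxc2 and -44.1% for Tcf21 in DMSO-treated H77L mice, and -38.5%, -55.5% and -35.3%, respectively, in DMSO-treated C118F mice. Foxc1, Foxd1, Klf15 and Tead1 passed the test in none of these comparisons. All 7 genes passed the filter on low values, and 3 of 7 were called at an adjusted p under 0.05 in each of the 4 comparisons with controls, all lower. Of all genes tested, 44.8% were called and 22.4% were called lower in the H77L mice under DMSO, 30.4% and 16.6% in the C118F mice under DMSO, 23.6% and 11% in the H77L mice under bortezomib, and 27.5% and 12.4% in the C118F mice under bortezomib. With that many genes called, 3 of 7 is not a result about the list as a whole. None of the 7 met the cutoffs of the study, an adjusted p under 0.001 with an absolute log2 fold change above 2, which 2.17%, 2.27%, 1.2% and 1.93% of all genes met in the same order. Both lines were compared with the same control mice, and in sorted cells in bulk a loss of RNA per cell cannot be told apart from a smaller share of cells that express the gene.

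**Figure D2:**
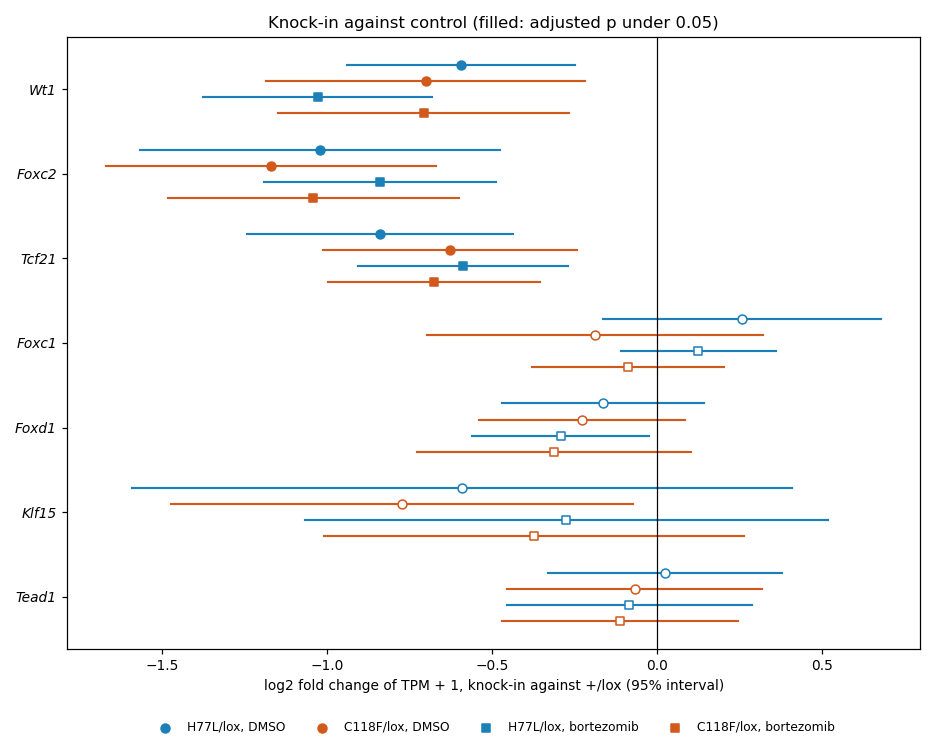
Log2 fold change of TPM + 1 (horizontal axis) of each knock-in line against Lmx1b +/lox mice of the same treatment, with 95% intervals from limma; circles are DMSO, squares bortezomib, and filled symbols have an adjusted p under 0.05. The 12 filled symbols belong to Wt1, Foxc2 and Tcf21 and lie between -0.59 and -1.17, while intervals of Foxc1 and Tead1 span 0 in all 4 comparisons.

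Wt1, which regulates slit diaphragm genes, ranged in DMSO-treated controls from 146.4 to 258.0 TPM with a median of 225.6. In DMSO-treated H77L mice it ranged from 114.7 to 200.6 TPM with a median of 129.3, and 5 of these 6 mice lay below every control. The log2 fold change was -0.59 ± 0.16 (SE, adjusted p = 0.0085). In DMSO-treated C118F mice the range was 68.3 to 197.7 TPM with a median of 120.4, 4 of 6 mice lay below every control, and the log2 fold change was -0.70 ± 0.23 (adjusted p = 0.0299). This call was lost when any of 7 of the 12 mice was left out, without the libraries that stood apart (log2 fold change -0.54, adjusted p = 0.0713) and without the filter (adjusted p = 0.0819).

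Under bortezomib the Wt1 values of control mice spread from 175.0 to 440.5 TPM with a median of 268.2. All 6 H77L mice, from 107.3 to 161.3 TPM with a median of 132.1, lay below them, the only comparison in which Wt1 did not overlap, with a log2 fold change of -1.03 ± 0.16 (adjusted p = 0.00021). The 5 C118F mice had 107.0, 175.7, 164.8, 182.0 and 218.4 TPM, so that 2 of them lay below every control, with a log2 fold change of -0.71 ± 0.21 (adjusted p = 0.0196). Without the filter the latter had an adjusted p of 0.0617. The antisense gene Wt1os had means of 29.8 TPM in DMSO-treated controls, 14.1 TPM in H77L and 13.45 TPM in C118F mice, and its log2 fold changes in the 4 comparisons lay between -1.22 and -0.79 (adjusted p from 1.16e-05 to 0.0127). The share of its reads that comes from the overlap with Wt1 was not tested.

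Foxc2, a forkhead factor needed for podocyte differentiation, did not overlap between DMSO-treated controls and either knock-in line. The share of all genes without overlap was not counted, here or for Wt1 above. Controls ranged from 473.0 to 673.6 TPM with a median of 571.4. H77L mice ranged from 99.6 to 356.4 TPM with a median of 333.6 and a log2 fold change of -1.02 ± 0.26 (adjusted p = 0.00504). C118F mice ranged from 132.5 to 387.1 TPM with a median of 266.6 and a log2 fold change of -1.17 ± 0.23 (adjusted p = 0.00179). Of the C118F mice, 3 had 336.5, 370.1 and 387.1 TPM and 3 had 132.5, 184.6 and 196.7 TPM. With the animal number in the labels as a covariate the H77L fold change was -0.70 and no longer passed (adjusted p = 0.122). What the number follows is not given in the sources used here and its range differs between the groups, so that with it as a covariate part of a genotype difference cannot be told apart from the number.

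Under bortezomib the Foxc2 groups overlapped through 1 control mouse. The controls ranged from 337.6 to 739.0 TPM with a median of 690.0, and the next lowest of them had 637.4 TPM. The mouse with 337.6 TPM had the animal number 48986, outside the range of all other controls of both treatments (46302 to 47221). A part of the number in its Foxc2 level was not tested. H77L mice ranged from 271.7 to 397.8 TPM with a median of 354.3 and a log2 fold change of -0.84 ± 0.17 (adjusted p = 0.00135). The 5 C118F mice had 395.4, 319.1, 205.1, 258.7 and 344.1 TPM, with a log2 fold change of -1.04 ± 0.21 (adjusted p = 0.0017), which the animal number as a covariate brought to -0.54 (adjusted p = 0.0803).

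Tcf21, the basic helix-loop-helix factor, ranged from 345.5 to 780.8 TPM with a median of 474.4 in DMSO-treated controls. In H77L mice under DMSO it ranged from 201.9 to 390.5 TPM with a median of 263.8, 5 of 6 mice lay below every control, and the log2 fold change was -0.84 ± 0.19 (adjusted p = 0.00257). In C118F mice under DMSO it ranged from 249.8 to 379.4 TPM with a median of 341.9, and the log2 fold change was -0.63 ± 0.18 (adjusted p = 0.0167). Only 3 of these 6 mice lay below every control, and without the libraries that stood apart the log2 fold change was -0.47 with an adjusted p of 0.113. Array weights and the animal number as a covariate also ended this call (adjusted p = 0.051 in each).

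With bortezomib, Tcf21 in controls ranged from 415.0 to 697.6 TPM with a median of 501.2. It ranged from 266.5 to 462.2 TPM with a median of 321.7 in H77L mice, 5 of 6 of them below every control, with a log2 fold change of -0.59 ± 0.15 (adjusted p = 0.0088). The 5 C118F mice had 310.1, 426.8, 297.8, 297.6 and 291.7 TPM, of which 4 lay below every control, with a log2 fold change of -0.68 ± 0.15 (adjusted p = 0.00395). With the animal number as a covariate the latter had an adjusted p of 0.0558. The mouse with 426.8 TPM was the one of lowest depth.

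Foxc1, the paralog of Foxc2, ranged from 140.0 to 317.4 TPM with a median of 268.8 in DMSO-treated controls, from 188.8 to 391.1 TPM with a median of 319.1 in H77L and from 128.0 to 333.3 TPM with a median of 224.5 in C118F mice. The groups overlapped in every comparison. Its log2 fold change was 0.26 (95% interval -0.16 to 0.68, adjusted p = 0.308) in H77L and -0.19 (-0.70 to 0.32, adjusted p = 0.591) in C118F mice under DMSO. Under bortezomib it was 0.12 (-0.11 to 0.36, adjusted p = 0.465) and -0.09 (-0.38 to 0.20, adjusted p = 0.677). None of the intervals reached down to the fold change of Foxc2 in the same comparison. With the animal number as a covariate Foxc1 was called higher in DMSO-treated H77L mice (0.63, adjusted p = 0.0481).

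The balance of the paralogs was therefore compared within each mouse, as the ratio of Foxc2 to Foxc1 TPM, which does not depend on how mice are scaled to each other. This measure was chosen after the values had been seen. In controls the ratio was 2.29 ± 0.66 (SD, n = 6) under DMSO and 2.15 ± 0.44 (n = 6) under bortezomib. In H77L mice it was 0.94 ± 0.24 (n = 6) and 1.08 ± 0.08 (n = 6), and in C118F mice 1.15 ± 0.25 (n = 6) and 1.095 ± 0.17 (n = 5). The groups did not overlap in any of the 4 comparisons: the lowest control had 1.73 under DMSO and 1.41 under bortezomib, and the highest knock-in mouse 1.44 and 1.36. The difference of the mean log2 ratio from controls was -1.28 ± 0.23 (SE) and -0.98 ± 0.21 under DMSO and -0.97 ± 0.14 and -0.96 ± 0.17 under bortezomib, in H77L and C118F mice. Two-sided exact permutation tests over mice gave p = 0.00216 for the first 3, the smallest value that 6 against 6 mice allow, and p = 0.00433 for the last (0.00289 and 0.00433 after Benjamini-Hochberg adjustment over the 4 comparisons). Since the ratio was picked with both genes' values known, these p-values restate the lower Foxc2 beside Foxc1 and are no separate evidence. Neither they nor the lack of overlap were set against other pairs of genes. Reads that fit several places were assigned to 1 of them at random by the authors, and the share of such reads between the paralogs was not tested.

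**Figure D3:**
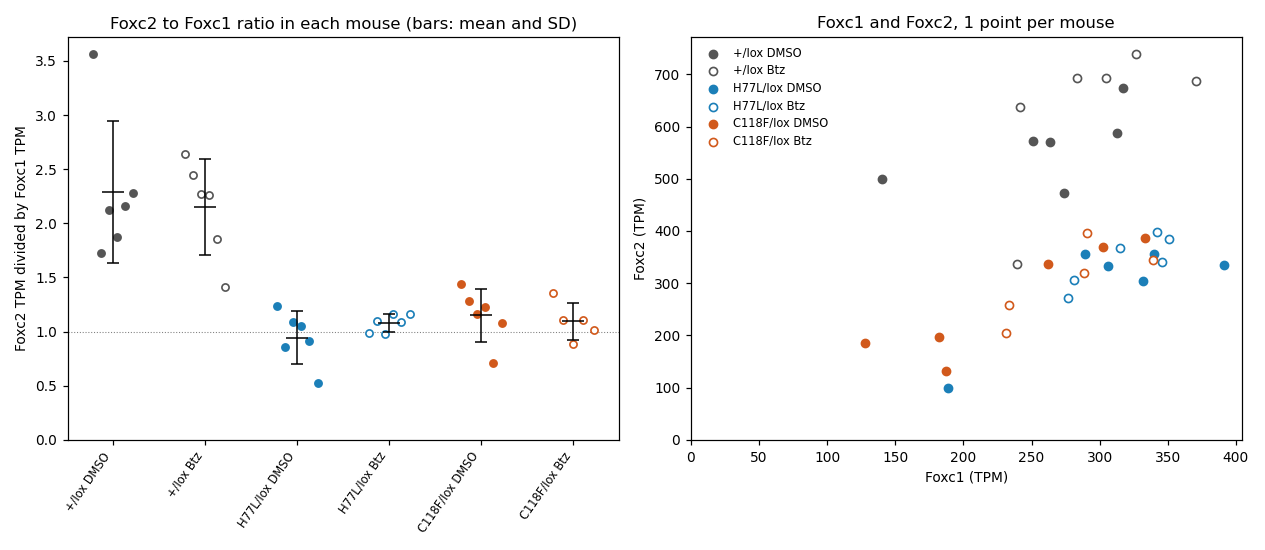
Left, ratio of Foxc2 to Foxc1 TPM in each mouse by group, with mean and SD as black bars and a dotted line at 1; right, Foxc2 against Foxc1 TPM, 1 point per mouse (both axes linear). Knock-in mice gather around a ratio of 1 and controls around 2, with 1 DMSO-treated control at 3.57, and within groups the genes had an r of 0.73.

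Foxd1, best known from the stromal progenitors of the kidney and also made by podocytes, did not pass the test. Its group means lay between 66.6 and 86.9 TPM, and its log2 fold changes against controls were -0.17 (95% interval -0.47 to 0.14) and -0.23 (-0.54 to 0.09) under DMSO and -0.29 (-0.56 to -0.03, adjusted p = 0.107) and -0.31 (-0.73 to 0.10) under bortezomib, in H77L and C118F mice, respectively. Leaving out bortezomib-treated control mouse 1, whose Foxd1 level of 56.1 TPM was far below the 87.8 to 98.4 TPM of the others, gave -0.41 with an adjusted p of 0.0023 in H77L mice. With array weights, which give less weight to variable mice, Foxd1 was called lower in both lines under bortezomib (-0.37, adjusted p = 0.0151, and -0.50, adjusted p = 0.0357).

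Klf15 was the most variable of the 7 genes. Its highest value was 10.0 times its lowest over the 35 mice, and the SD within a group was between 30.4% and 68.0% of the mean. In DMSO-treated controls it ranged from 35.1 to 192.1 TPM with a median of 96.6, in H77L mice from 19.2 to 132.4 TPM with a median of 57.4 and in C118F mice from 35.8 to 79.0 TPM with a median of 47.5. The groups overlapped, and the log2 fold changes were -0.59 ± 0.47 (SE, adjusted p = 0.323) and -0.77 ± 0.33 (adjusted p = 0.0886). The second was called without DMSO-treated control mouse 1 (-1.02, adjusted p = 0.0143), which had the lowest control value, without the libraries that stood apart (-0.78, adjusted p = 0.0452) and with array weights (-0.88, adjusted p = 0.0439). Under bortezomib the log2 fold changes were -0.28 ± 0.37 (adjusted p = 0.648) and -0.37 ± 0.30 (adjusted p = 0.382).

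Tead1 was the lowest and among the steadiest. It lay between 8.60 and 19.9 TPM over all mice, and its log2 fold changes against controls were 0.02 (95% interval -0.33 to 0.38) and -0.07 (-0.45 to 0.32) under DMSO and -0.09 (-0.46 to 0.29) and -0.11 (-0.47 to 0.24) under bortezomib. Of 12 YAP and TEAD target genes, all tested, 9 were called in H77L and 8 in C118F mice under DMSO, of which 8 and 7 were higher, and their median log2 fold changes were 0.98 and 1.05, beside -0.01 and -0.06 over all genes tested, of which 44.8% and 30.4% were called. Tagln, an actin-binding protein of contractile cells, rose by 4.43 ± 0.19 (SE, log2, adjusted p = 7.05e-10) and 4.32 ± 0.27 (5.34e-08), and the matricellular gene Ccn2 by 1.71 ± 0.25 (0.000102) and 1.73 ± 0.24 (7.34e-05). Crim1 rose by 1.51 ± 0.18 (1.38e-05) and 1.17 ± 0.21 (0.000813). The transcript of the coactivator Yap1 itself was lower, with -0.56 ± 0.09 (0.000301) and -0.66 ± 0.16 (0.00652). With bortezomib Yap1 had -0.66 (3.94e-05) in H77L and -0.59 (0.00108) in C118F mice. Under bortezomib 8 and 9 of the 12 were called, 6 and 5 of them higher, with medians of 0.25 and 0.41, beside -0.01 and 0.00 and 23.6% and 27.5% called over all genes tested. Ankrd1, a further target, had log2 fold changes of 1.30 ± 0.33 (adjusted p = 0.0054) and 1.399 ± 0.35 (adjusted p = 0.00824) under DMSO but of -0.02 and 0.01 (adjusted p = 0.979 and 0.987) under bortezomib. With all mice limma called no gene, Ankrd1 included, for a difference in bortezomib response between a knock-in line and controls, but 199 genes were called for H77L minus control mice without DMSO-treated control mouse 5 and 275 without bortezomib-treated control mouse 1.

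Other transcription regulators of podocytes moved in both directions. Of 20 listed, 15 passed the filter, and under DMSO 11 were called in H77L mice, 5 higher and 6 lower, and 6 in C118F mice, 2 higher and 4 lower. These are 73.3% and 40% of the 15, beside 44.8% and 30.4% of all genes tested. Their median log2 fold changes were -0.13 and -0.32, beside -0.01 and -0.06 over all genes. Under bortezomib 9 and 6 were called, 60% and 40% beside 23.6% and 27.5% of all genes, 1 of them higher in each line, with medians of -0.31 and -0.25 beside -0.01 and 0.00. Zhx1, a zinc finger and homeobox protein, fell, with log2 fold changes of -0.62 ± 0.12 (SE, adjusted p = 0.000918) in H77L and -0.85 ± 0.10 (1.51e-05) in C118F mice under DMSO. Tead4, a relative of Tead1 at 6.61 TPM in controls, fell, with -0.98 ± 0.18 (0.000739) and -1.03 ± 0.27 (0.0103). Klf4, a zinc finger factor of the same family as Klf15, rose by 2.28 ± 0.48 (0.00158) and 2.47 ± 0.53 (0.00282) but under bortezomib had log2 fold changes of 0.65 (0.299) and 1.17 (0.133), which did not pass. For a difference in bortezomib response between a knock-in line and controls, limma with all mice did not call Klf4, with the limits given above for Ankrd1.

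A further list held 22 genes of podocyte structure and function, not all of them structural, and all were tested. Under DMSO 14 were called in H77L mice, 11 of them lower, and 11 in C118F mice, 10 of them lower. These are 63.6% and 50% of the list, beside 44.8% and 30.4% of all genes tested, of which 22.4% and 16.6% were lower. Their median log2 fold changes were -0.39 and -0.49 under DMSO, beside -0.01 and -0.06 over all genes. Under bortezomib 14 and 13 were called, 63.6% and 59.1% beside 23.6% and 27.5% of all genes, 12 and 11 of them lower, with medians of -0.57 and -0.45 beside -0.01 and 0.00. The cell cycle inhibitor Cdkn1c fell, with log2 fold changes of -4.59 ± 0.25 (SE, adjusted p = 9.73e-09) and -4.45 ± 0.23 (1.34e-08) under DMSO. Synpo, which binds actin in foot processes, had -2.06 ± 0.22 (4.89e-06) and -2.44 ± 0.23 (2.74e-06), and the secreted Sema3g -2.36 ± 0.22 (1.32e-06) and -2.95 ± 0.27 (1.49e-06). At the other end of the called genes, the peptidase gene Mme had -0.52 ± 0.09 (0.000544) and -0.73 ± 0.09 (4.67e-05).

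Bortezomib moved none of the 7 genes past the threshold within a genotype. With limma 0 of 7 were called in Lmx1b +/lox, H77L and C118F mice, 0 of 7 also had an unadjusted p under 0.05, and limma voom on the recovered reads called 0. Of all genes tested, 0% (0 genes, 923 at an unadjusted p under 0.05), 1.16% (125 genes) and 0% (0 genes, 634 at an unadjusted p under 0.05) were called, respectively, and voom called 0, 73 and 0. The 125 genes became 0 without bortezomib-treated H77L mouse 2, 4 or 6 and 270 without mouse 1 of that group, 0 without the filter and 19 without the intensity trend. For Wt1 the log2 fold change of bortezomib against DMSO was 0.40 (95% interval -0.00 to 0.81, adjusted p = 0.573) in controls, -0.03 (-0.31 to 0.25, adjusted p = 0.928) in H77L and 0.40 (-0.14 to 0.93, adjusted p = 0.819) in C118F mice. For Foxc2 it was 0.13 (-0.22 to 0.48), 0.31 (-0.23 to 0.86) and 0.26 (-0.34 to 0.85), and for Tcf21 0.04 (-0.35 to 0.43), 0.29 (-0.04 to 0.62) and -0.01 (-0.32 to 0.30). The Foxc2 deficit under DMSO has its own error, with -1.02 (95% interval -1.57 to -0.48) in H77L and -1.17 (-1.67 to -0.67) in C118F mice. Deficit and response share the DMSO-treated knock-in mice, and their sizes were not tested against each other.

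Between C118F and H77L mice 0 of 7 were called by limma and by voom under each treatment, and 0 of 7 had an unadjusted p under 0.05, while 0% of all genes (0 called, 416 at an unadjusted p under 0.05, voom 0) were called under DMSO and 0.972% (105 genes, voom 128) under bortezomib. The 105 genes became 35 without bortezomib-treated C118F mouse 4 and 279 without mouse 1 of that group, and between 13 (no filter) and 348 (array weights) under other settings. The log2 difference of Wt1 was -0.11 (95% interval -0.58 to 0.37) under DMSO and 0.32 (-0.01 to 0.65, adjusted p = 0.356) under bortezomib. The latter was called without bortezomib-treated C118F mouse 1 (0.48, adjusted p = 0.0446), the lowest of its group. For Foxc2 the difference was -0.15 (-0.86 to 0.57) and -0.20 (-0.53 to 0.12), and for Tcf21 0.21 (-0.12 to 0.55) and -0.09 (-0.39 to 0.21). The test of the interaction, whether the bortezomib response differed between genotypes, gave 0 of 7 genes called by limma and voom and 0 at an unadjusted p under 0.05 for H77L minus C118F, H77L minus control and C118F minus control mice. Of all genes 0%, 0% and 0% were called, with 840, 2037 and 560 at an unadjusted p under 0.05 and 0 called by voom in each, and the 0 of H77L minus control mice became 18 without DMSO-treated H77L mouse 5 and 199 or 275 without either control mouse named above for Ankrd1. For Wt1 these differences of response were -0.43 (-1.03 to 0.17), -0.43 (-0.94 to 0.07) and -0.01 (-0.69 to 0.68).

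Of the 21 pairs of the 7 genes, 5 had a Pearson r of log2(TPM + 1) above 0.5 over the 35 mice, and 2 after the group means had been subtracted. These were Foxc1 with Foxc2 (r = 0.73 within groups, 0.48 over all mice) and Foxc1 with Klf15 (0.55 and 0.50). Wt1 and Foxc2, which were both lower in the knock-in lines, were related in opposite ways, with r = 0.35 over all mice and -0.43 within groups. In 3 of the 6 groups the mouse with the highest Wt1 was the one with the lowest Foxc2, namely DMSO-treated control mouse 2, bortezomib-treated control mouse 6 and DMSO-treated H77L mouse 6. In the last of these Wt1 was at 200.6 TPM, Foxc2 at 99.6 TPM and Klf15 at its lowest value of all mice, 19.2 TPM. Over the 32 mice left without these 3 the within-group r of Wt1 and Foxc2 was -0.15, and that of Foxc1 and Foxc2 was 0.71. The 3 mice were picked for high Wt1 with low Foxc2, and leaving out such mice by itself weakens a negative r. The value of -0.15 therefore does not show that the relation rests on them. Without the 4 libraries that stood apart the within-group r of Wt1 and Foxc2 was -0.63 and that of Foxc1 and Foxc2 0.84. Points of a correlation share the scaling of each mouse to the same sum, and none of the 7 genes had an r with depth outside the range from -0.15 to 0.13.

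Genes with the most similar pattern over the 35 mice were searched among 11305 genes. For Wt1 these were the guanine exchange factor Trio (r = 0.89, 0.83 within groups, 0.865 to 6.13 TPM) and Cep85l (0.89, 0.78). For Foxc2 they were Rassf10 (0.93, 0.89) and the pseudokinase Trib2 (0.89, 0.83), which fell from means of 265.8 and 618.6 TPM in DMSO-treated controls to 51.0 and 165.8 TPM in H77L and 37.7 and 138.6 TPM in C118F mice. For Tcf21 they were Hexim1, an inhibitor of transcription elongation (0.82, 0.51), and Bambi, a decoy receptor of TGF-beta signalling (0.80, 0.44), whose likeness was thus mostly one of group means.

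The uncalled genes had partners of other kinds. Foxc1 was most like Egr1 (r = 0.83, 0.84 within groups) and Dusp6 (0.79, 0.80), an immediate early gene and a phosphatase that acts on ERK. Egr1 ranged from 922 to 7078 TPM, and its 2 lowest mice, DMSO-treated C118F mouse 1 and control mouse 1, were the 2 lowest in Foxc1 as well, at 128.0 and 140.0 TPM. Without the 4 libraries that stood apart, which include both, the within-group r of Foxc1 and Egr1 was 0.68. Klf15 was most like the glucocorticoid-induced Tsc22d3 (0.85, 0.87 within groups, 0.86 without the 4 libraries) and Ccdc71l (0.83, 0.83), and Tsc22d3 ranged from 151.6 to 1375 TPM. Foxd1 was most like the GTPase gene Rnd3 (0.77, 0.73) and the inhibitory Smad6 (0.73, 0.70), and Tead1 most like Phactr2 (0.63, 0.65) and Usf3 (0.63, 0.68).

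**Figure D4:**
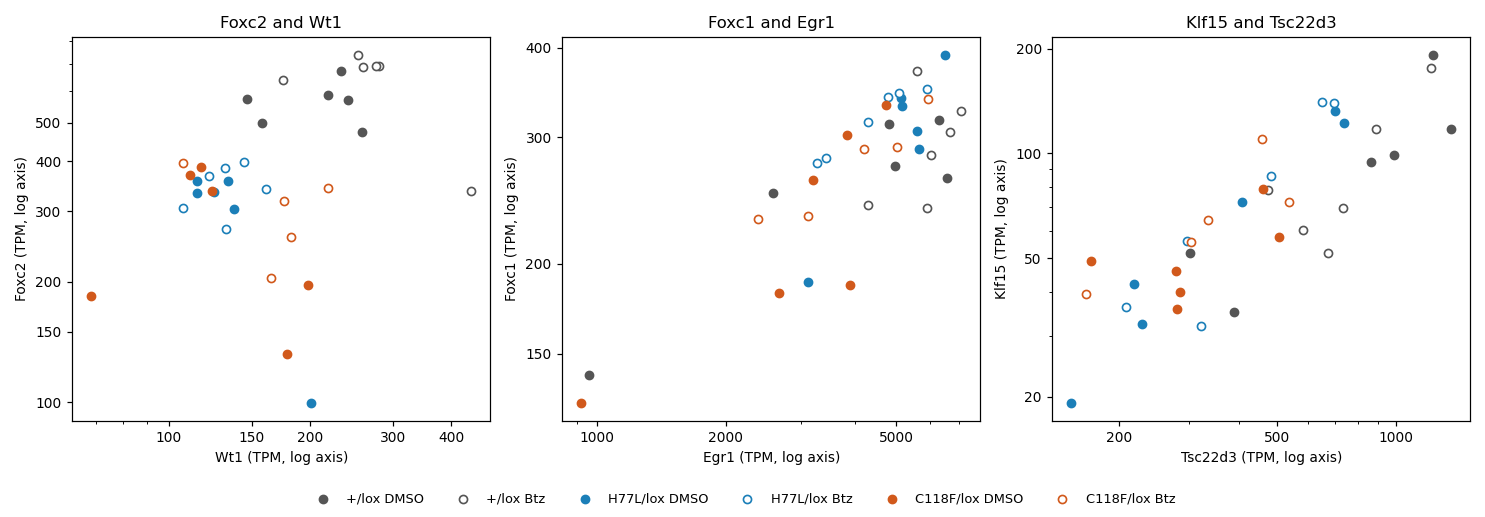
TPM in each of the 35 mice, by genotype and treatment, on log axes: Foxc2 against Wt1 (left), Foxc1 against Egr1 (middle) and Klf15 against Tsc22d3 (right). Klf15 and Tsc22d3 had a within-group r of 0.87, the 2 mice lowest in Foxc1 are the 2 lowest in Egr1, and single mice with high Wt1 and low Foxc2 lie at the lower right of the left panel.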

How the data were processed

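Podocyte RNA of 35 mice was sequenced by the authors. Per the labels and the study's methods, reads were trimmed with Trim Galore 0.6.7, mapped to GRCm39 with STAR, passed through Picard and counted per gene with featureCounts 1.6.3. Reads with several matches were reported at 1 place at random. The deposited values are TPM, which sum to 1000000 per mouse, and neither the strand setting nor the step from counts to TPM is given in the sources used here.

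Because the table holds TPM and not counts, log2(TPM + 1) was tested with limma 3.58.1 in R 4.3.3 (moderated by eBayes, trend on), using only mice of the groups in question, over all genes above 1 TPM in every mouse of at least 1 of them, with Benjamini-Hochberg adjustment over all genes tested and a threshold of 0.05. Fold changes of low genes are understated on this scale. The limma p-values set a difference between groups against the spread between mice, which eBayes moderates over the genes tested. Whole reads could be recovered to within 0.01 read for 23940 of 23943 genes with a value above 0 (100.0%), and limma voom on these reads was added after the data had been seen. Scripts were tested on simulated data. Tables were handled in Python 3.11.15 (pandas 2.3.3, numpy 2.4.6), permutations in scipy 1.17.1 and plots in matplotlib 3.10.9.

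The genes and the lists were chosen with earlier results of these data known. Named are the 7 genes, Lmx1b, the 2 genes most like each of the 7 by Pearson r, and the list genes called in both DMSO comparisons that lead their list. Some of these are not reported here. Wt1os was added after its overlap with Wt1 was seen. The alternatives were a pseudocount of 0.1, no filter, median-of-ratios scaling, 1 fit over all mice, no intensity trend, array weights, the animal number as a covariate, each mouse left out, the study's cutoffs and, added later, voom and leaving out the 4 libraries that stood apart.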

Additional observations from a re-analysis of the deposited data

Results flagged for a closer look

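In 7 of the 48 groups of values examined, 1 mouse lay far from the rest of its group by Dixon's test at the 95% level, where chance gives about 1 in 20. Of these, 6 concern the 7 transcription factors, for which 42 groups were examined. DMSO-treated H77L mouse 6 had the highest Wt1 of its group, 200.6 TPM against 114.7 to 137.4 TPM, and the lowest Foxc2, 99.6 TPM against 303.5 to 356.4 TPM. Bortezomib-treated control mouse 6 had 337.6 TPM of Foxc2 against 637.4 to 739.0 TPM. DMSO-treated control mouse 1 had 140.0 TPM of Foxc1 against 251.0 to 317.4 TPM, and a ratio of Foxc2 to Foxc1 of 3.57 against 1.73 to 2.28. Bortezomib-treated C118F mouse 2 had 426.8 TPM of Tcf21 against 291.7 to 310.1 TPM, and bortezomib-treated control mouse 1 had 56.1 TPM of Foxd1 against 87.8 to 98.4 TPM. What set these mice apart was not tested.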

How the results depend on the processing

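Of 84 fold changes of the 7 genes, 12 were called. Over 742 refits with other settings 9 calls were lost, 5 were gained and no called value turned its sign, and over 1225 refits without 1 mouse 7 calls were lost and 3 gained. These refits cover all 84 values, while only the 12 called ones could lose a call. All 7 calls lost without 1 mouse were those of Wt1 in C118F mice under DMSO, which had 12 such refits. Under the study's cutoffs 0 of 7 genes were called in each of the 4 comparisons with controls, and with the animal number as a covariate 1, Wt1, was called in C118F mice under bortezomib. With 1 mouse left out the count was 3 to 3 and 2 to 4 in H77L and C118F mice under DMSO, 3 to 4 and 3 to 3 under bortezomib, and 0 to 1 between the lines under bortezomib. The log2 ratio of Foxc2 to Foxc1 then lay between -1.37 and -0.85 under DMSO and between -1.08 and -0.88 under bortezomib.

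Signs turned for values that had not been called. With the animal number as a covariate, Klf15 was 0.76 and Tead1 -0.14 in H77L and Foxc1 0.0433 in C118F mice under DMSO. Under bortezomib Klf15 was 0.005 in H77L and Foxc1 0.0431 in C118F mice, and the bortezomib response of Tcf21 was -0.0525 in controls and 0.0819 in C118F mice. Tead1 was -0.0032 with voom in H77L and 0.0625 without the libraries that stood apart in C118F mice under DMSO. The response of Wt1 in H77L mice was 0.0086 with array weights, and its difference between the lines under DMSO was 0.0189 with array weights and 0.0661 without the libraries that stood apart.

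Without 1 mouse, Tead1 ranged from -0.0736 to 0.091 and from -0.17 to 0.0012 under DMSO and from -0.16 to 0.0358 in H77L mice under bortezomib. The response of Tcf21 ranged from -0.0681 to 0.17 in controls and from -0.11 to 0.0368 in C118F mice, and that of Wt1 from -0.0884 to 0.0822 in H77L mice. Between the lines under DMSO, Wt1 ranged from -0.24 to 0.0661 and Foxc2 from -0.44 to 0.0331. For the response of C118F minus control mice, Wt1 ranged from -0.18 to 0.15. The causes were not tested. No paired analysis was possible because the labels give the groups no shared replicate numbers. At least 230 recovered reads stood behind each value of the 7 genes, and the SD of Klf15 reached 68.0% of its mean.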
